A study of Mus musculus with 18 samples.

Results

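Dazl, Ddx4, Mael, Piwil2, Gpat2, Fkbp6, Tdrd1, Tdrd9, Mov10l1 and Asz1 are genes of the germ cell RNA programme and of the PIWI-interacting RNA (piRNA) pathway. They were taken by symbol from the deposited tables, and all 10 were found among 34850 genes with a value in the 18 libraries. In culture the transcripts of 6 of them, Dazl, Ddx4, Piwil2, Gpat2, Fkbp6 and Mov10l1, were higher in each of the 12 libraries of cultured germ cells than in any of the 6 uncultured libraries, an ordering that 3.82% of tested genes shared. Genes were tested by their level, which Piwil2, Gpat2, Fkbp6 and Mov10l1 reached in cultured libraries only. For them the ordering was partly built in, and the share is given as a description. Tdrd1 and Tdrd9 did not exceed 4.49 RPM (read number per library scaled to a common total) and 0.965 RPM in any library.

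The series concerns primordial germ cell-like cells (PGCLCs), germline precursors obtained from embryonic stem cells (ESCs) through epiblast-like cells (EpiLCs), and their growth with CsA (cyclosporin A, a drug that blocks calcineurin) and fibroblast growth factor (FGF). Day-4 PGCLCs were cultured for 7 days on m220-5 feeder cells with stem cell factor, and these groups are called d4c7. They were labelled CsA, FGF10, FGF2 and FR10, and the last of these had 10 µM forskolin together with rolipram, both of which increase cAMP in cells. Germ cells of E9.5 embryos were cultured for 5 days and are called E9.5c5, with the groups CsA and FR10. Each of the 9 groups had 2 libraries. ESCs were grown in 2i and LIF and EpiLCs with activin A and FGF2, both unsorted. ESCs, EpiLCs and day-4 PGCLCs are labelled C57BL/6 and the d4c7 groups B6D2F1, and all of them carry the Blimp1-mVenus and Stella-ECFP reporters. Day-4 and d4c7 cells were sorted for mVenus. The E9.5c5 groups come from B6D2F1 x C57BL/6 embryos with a Stella-EGFP reporter and were sorted for EGFP. The amounts of CsA and FGF, whether forskolin and rolipram were also present in the CsA and FGF cultures, whether FGF10 names a factor or an amount, the number of ESC clones and any pooling of embryos are not known from the labels. Separate biological replicates are stated for the cultured groups only, so in ESCs, EpiLCs and day-4 PGCLCs the spread between libraries may be technical.

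piRNAs are small RNAs bound by PIWI proteins that guide the silencing of transposons in the germline. Their precursors are cut and loaded on mitochondria and in germ granules, the perinuclear assemblies that hold Ddx4 and Tudor-domain proteins. In the mouse embryo Dazl, Ddx4 and many piRNA genes have promoters rich in CpG that are methylated in somatic cells, and they are switched on in germ cells around the time of arrival in the gonad, as DNA methylation is lost. The same promoters are known targets of PRC1.6, a repressor complex that contains the E2F6 and MGA:MAX DNA-binding proteins. MGA:MAX binds the E-box CACGTG, and E2F6 binds sites such as GGCGGGA.

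Promoter windows of 300 bases, from 250 before to 50 after the RefSeq start in GRCm38.p6, were available for 9 members, while Piwil2 had no entry. RefSeq lists 2 windows for Fkbp6 and 3 for Tdrd1, and the first listed window of each gene is described here. The start of a window can lie inside the gene range given below. The windows of Ddx4 and Fkbp6 described here lie wholly within it, so their distances are not from the end of that range. These 9 windows held between 10 CpG sites in Tdrd9 and 38 in Ddx4, with 28 in Dazl, against a median of 7 over the first windows of 27025 genes. Of all 12 windows of the members 11 lay above that median, and the third of Tdrd1 held 3 CpG sites and neither motif below. CACGTG, which reads the same on both strands, was present in 6 of the 9 against 7.24% of first windows. GGCGGGA, searched on both strands, was present in 3 of the 9 against 11.4% of first windows. Both motifs contain a CpG, and these shares over all genes were not matched to the CpG content of the members' windows. No matches of the motifs overlapped each other. The windows shown are those of Dazl, with many CpG sites and neither motif, of Ddx4 and Mael, with both motifs, and of Fkbp6 and Tdrd9, each with a pair of CACGTG matches. Fkbp6 reached high levels in culture and Tdrd9 did not. Positions are chr17:50293571-50293870 for Dazl, chr13:112652261-112652560 for Ddx4, chr1:166238695-166238994 for Mael and chr5:135349995-135350294 for Fkbp6, all on the minus strand, and chr12:111971309-111971608 on the plus strand for Tdrd9. Sequences are RefSeq's, written 5′ to 3′ on the gene's strand, with CACGTG in capitals, as is GGCGGGA or its reverse complement TCCCGCC.
Dazl: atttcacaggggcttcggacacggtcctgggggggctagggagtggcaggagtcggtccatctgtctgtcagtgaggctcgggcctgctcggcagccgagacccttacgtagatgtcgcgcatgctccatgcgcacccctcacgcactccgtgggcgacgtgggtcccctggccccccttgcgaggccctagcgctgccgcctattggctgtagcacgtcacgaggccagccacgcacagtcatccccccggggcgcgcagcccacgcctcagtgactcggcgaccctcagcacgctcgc
Ddx4: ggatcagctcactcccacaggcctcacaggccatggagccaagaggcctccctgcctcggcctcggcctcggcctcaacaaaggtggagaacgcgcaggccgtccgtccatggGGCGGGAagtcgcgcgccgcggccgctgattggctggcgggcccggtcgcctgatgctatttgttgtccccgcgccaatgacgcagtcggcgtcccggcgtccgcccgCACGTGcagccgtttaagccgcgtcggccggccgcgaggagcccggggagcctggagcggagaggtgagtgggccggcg
Mael: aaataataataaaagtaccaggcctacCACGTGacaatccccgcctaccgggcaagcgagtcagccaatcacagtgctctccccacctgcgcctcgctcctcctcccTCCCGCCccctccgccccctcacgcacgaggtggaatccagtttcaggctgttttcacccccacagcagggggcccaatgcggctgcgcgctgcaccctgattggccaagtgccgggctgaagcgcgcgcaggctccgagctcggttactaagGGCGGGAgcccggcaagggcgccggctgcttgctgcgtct
Fkbp6: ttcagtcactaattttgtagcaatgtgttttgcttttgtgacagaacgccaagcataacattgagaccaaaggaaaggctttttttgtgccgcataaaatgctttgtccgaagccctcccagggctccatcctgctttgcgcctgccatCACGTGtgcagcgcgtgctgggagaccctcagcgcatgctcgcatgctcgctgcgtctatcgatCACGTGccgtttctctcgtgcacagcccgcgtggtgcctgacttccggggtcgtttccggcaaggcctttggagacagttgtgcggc
Tdrd9: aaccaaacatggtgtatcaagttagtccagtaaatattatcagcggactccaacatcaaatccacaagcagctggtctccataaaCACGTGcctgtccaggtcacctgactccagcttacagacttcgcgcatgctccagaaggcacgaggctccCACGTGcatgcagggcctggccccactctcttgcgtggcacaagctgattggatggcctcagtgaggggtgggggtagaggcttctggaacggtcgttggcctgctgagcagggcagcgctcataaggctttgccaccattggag

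**Figure D1:**
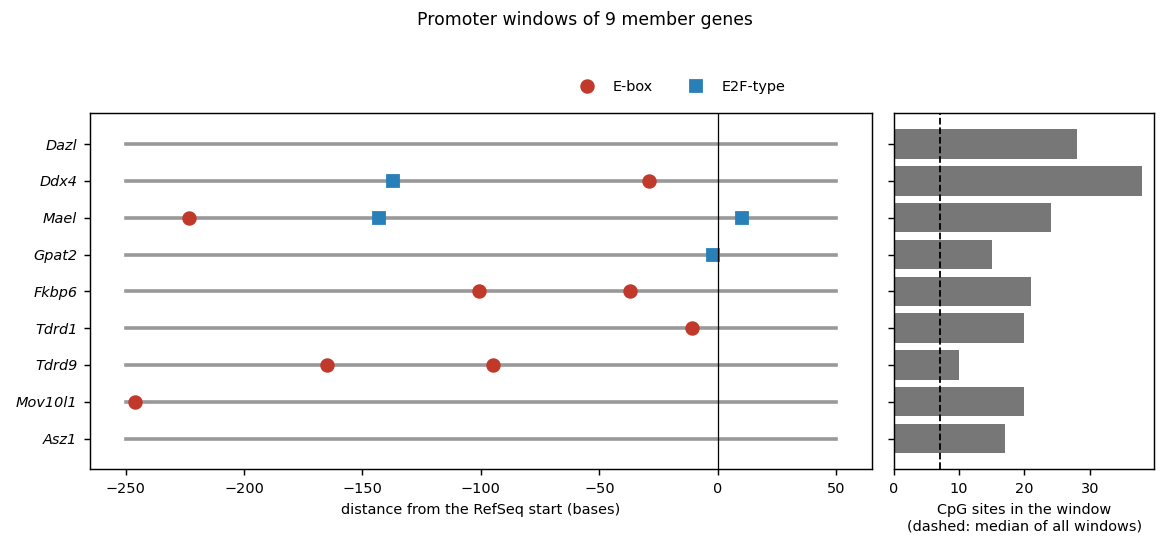
First listed promoter window of each of the 9 members with a RefSeq entry, with the distance from the RefSeq start in bases on the left axis and the number of CpG sites per window on the right. Circles mark the first base of CACGTG and squares that of GGCGGGA on either strand. Dazl and Asz1 hold neither, and each of the 9 windows drawn lies to the right of the dashed median of 7 CpG sites.

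In these windows CACGTG lay at −29 in Ddx4, at −223 in Mael, at −101 and −37 in Fkbp6, at −11 in Tdrd1, at −165 and −95 in Tdrd9 and at −246 in Mov10l1, given as the first base of the match on the gene's strand with the start as 0. GGCGGGA or its complement lay at −137 in Ddx4, at −143 and 10 in Mael and at −2 in Gpat2. A match describes the letters in the window only, since neither binding nor methylation was measured in the files used.

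Transcripts were measured by SC3-seq, which reads 3′ ends, in RPM, a share of each library. In bulk RNA fewer cells with a transcript and less of it per cell cannot be told apart. The inferred depth was 2129399 to 7547675 reads per library, so that 3 reads correspond to 0.398 to 1.41 RPM. This covers counting error only. Genes at 10 RPM or more in at least 2 libraries were tested, 9561 in all, with limma on log2(RPM + 1), and a gene was called at a Benjamini-Hochberg adjusted p under 0.05. Of the members 8 were tested, and Tdrd1 and Tdrd9 were not. Piwil2, Gpat2, Fkbp6, Mov10l1 and Asz1 reached 10 RPM in cultured libraries only, so a difference between cultured and uncultured groups was built into their being tested. The second libraries of d4c7 FGF2, E9.5c5 FR10 and E9.5c5 CsA stood apart, with 12822, 13208 and 12830 genes above 0, the lowest numbers of all. Values without these 3 libraries are given where they change a call. Germ cell markers summed to 1375 to 4652 RPM in day-4 and cultured libraries, 107 to 142 RPM in EpiLCs and 636 to 671 RPM in ESCs. Naive markers summed to 1243 and 1266 RPM in ESCs and to 60 and 58.4 RPM in EpiLCs, whose own markers summed to 2179 and 2250 RPM, so the markers followed the labels.

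Dazl (chromosome 17, 50279393 to 50293620, GRCm38.p6) encodes an RNA-binding protein that promotes the translation of germ cell mRNAs. In d4c7 cells Dazl stood at 304 and 462 RPM in CsA, 773 and 1112 RPM in FGF10, 954 and 844 RPM in FGF2 and 724 and 881 RPM in FR10. The E9.5c5 libraries held 339 and 40.0 RPM of Dazl in CsA and 694 and 93.7 RPM in FR10. Uncultured cells held 11.5 and 5.92 RPM in ESCs, 12.2 and 11.2 RPM in EpiLCs and 2.35 and 3.48 RPM in day-4 PGCLCs. The d4c7 FGF10, FGF2 and FR10 groups overlapped each other and lay above all others. E9.5c5 FR10, d4c7 CsA and E9.5c5 CsA overlapped in turn, EpiLCs and ESCs overlapped next, and day-4 PGCLCs were lowest, below both.

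Ddx4 (chromosome 13, 112598333 to 112652633), the mouse vasa homologue, encodes a DEAD-box RNA helicase of germ granules. It was detected in every library. Ddx4 stood at 50.6 and 47.1 RPM in d4c7 CsA, 51.9 and 63.3 RPM in FGF10, 45.3 and 21.1 RPM in FGF2 and 85.6 and 73.5 RPM in FR10. In E9.5c5 cells it was at 63.9 and 25.6 RPM in CsA and 73.5 and 29.9 RPM in FR10. Among uncultured cells the values were 1.99 and 9.99 RPM in ESCs, 18.7 and 18.6 RPM in EpiLCs and 5.17 and 12.2 RPM in day-4 PGCLCs. The highest uncultured library, an EpiLC one, lay close under the lowest cultured one, FGF2 replicate 2. The d4c7 FR10 group had the highest mean and did not overlap the next, FGF10, although its lower library and the first of E9.5c5 FR10 both rounded to 73.5 RPM.

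Piwil2 (chromosome 14, 70372477 to 70436898) encodes MILI, a PIWI protein that binds piRNAs in mouse germ cells. Its 12 cultured libraries ran between 36.2 and 87.4 RPM with a median of 46.3 RPM, and the 6 uncultured ones between 3.29 and 8.88 RPM with a median of 6.77 RPM. Day-4 PGCLCs, at 3.29 and 5.41 RPM, were the lowest group, under EpiLCs at 7.05 and 8.12 RPM and ESCs at 6.49 and 8.88 RPM. No cultured library came near the uncultured range, and the cultured groups overlapped their neighbours in the order of means, from FGF10 at 74.5 RPM down to d4c7 CsA at 38.8 RPM. The other PIWI genes, Piwil1 and Piwil4, had group means of 1.16 RPM at most.

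Mov10l1, Asz1 and Gpat2 act early in piRNA biogenesis. Mov10l1 (chromosome 15, 88982891 to 89055152), a helicase that binds piRNA precursors, ran from 12.99 to 28.4 RPM over the 12 cultured libraries with a median of 16.7 RPM. It was at 0.265 and 0.740 RPM in ESCs, 2.48 and 2.71 RPM in EpiLCs and 0.470 and 0.386 RPM in day-4 PGCLCs, so that EpiLCs lay above both others. Gpat2 (chromosome 2, 127425154 to 127436093), a mitochondrial protein of the acyltransferase family that piRNA production needs, ran from 17.1 to 61.9 RPM over the 12 cultured libraries with a median of 44.2 RPM, against 0 to 2.96 RPM over the 6 uncultured ones. Its libraries of d4c7 CsA were at 17.1 and 21.8 RPM, the lowest cultured group. E9.5c5 FR10, at 61.9 and 55.0 RPM, had the highest mean, although the higher library of d4c7 FGF10, at 59.4 RPM, and that of FGF2, at 58.6 RPM, lay above its lower one. The groups between overlapped.

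Asz1 (chromosome 6, 18050964 to 18109061), also called GASZ, encodes a germ granule protein on the mitochondrial surface. Asz1 stood at 2.60 and 6.04 RPM in d4c7 CsA, 9.27 and 21.4 RPM in FGF10, 4.57 and 0 RPM in FGF2 and 28.3 and 14.5 RPM in FR10. In E9.5c5 cells it was at 4.52 and 3.96 RPM in CsA and 15.0 and 3.52 RPM in FR10. ESCs held 0 and 1.48 RPM, EpiLCs 0.953 and 1.55 RPM and day-4 PGCLCs 0.470 and 0.579 RPM of this transcript. FGF2 replicate 2, where Asz1 was not read, was level with ESC replicate 1, and every group overlapped its neighbour in the order of means. At the depth of that library a count of 0 allows up to 0.729 RPM.

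Fkbp6 (chromosome 5, 135291704 to 135351809) encodes a co-chaperone of the FKBP family that takes part in piRNA loading. Its d4c7 libraries held 60.5 and 52.9 RPM in CsA, 78.6 and 79.2 RPM in FGF10, 111 and 80.9 RPM in FGF2 and 64.7 and 70.8 RPM in FR10. E9.5c5 cells had 87.4 and 41.5 RPM of Fkbp6 in CsA and 115 and 47.2 RPM in FR10. Uncultured cells had 1.19 and 1.29 RPM in ESCs, 2.86 and 3.10 RPM in EpiLCs and 0 and 1.16 RPM in day-4 PGCLCs. EpiLCs, ESCs and day-4 PGCLCs followed each other without overlap, all far under the lowest cultured library.

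Mael (chromosome 1, 166201385 to 166238744), a germ granule protein of transposon silencing, was the member with a high uncultured group. It was at 24.6 and 27.9 RPM in EpiLCs, against 3.047 and 1.85 RPM in ESCs, and at 1.41 and 0.772 RPM in day-4 PGCLCs. In d4c7 cells Mael was at 22.3 and 23.6 RPM in CsA, 24.1 and 38.5 RPM in FGF10, 31.2 and 18.2 RPM in FGF2 and 42.6 and 37.6 RPM in FR10. In E9.5c5 cells it was at 20.49 and 0 RPM in CsA and 17.0 and 3.77 RPM in FR10. EpiLCs overlapped the d4c7 FGF10 and FGF2 groups, and within each E9.5c5 group the second library lay far under the first.

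Tdrd1 (chromosome 19, 56826171 to 56870012) encodes a Tudor-domain scaffold that binds Piwil2, and Tdrd9 (chromosome 12, 111971488 to 112068854) a Tudor-domain helicase that works with Piwil4. Tdrd1 ran from 0 to 4.49 RPM over the 12 cultured libraries with a median of 1.31 RPM, and from 0 to 2.71 RPM over the 6 uncultured ones with a median of 1.18 RPM. Each group of Tdrd1 overlapped its neighbour in the order of means, headed by d4c7 FR10 at 1.94 and 4.49 RPM and EpiLCs at 2.29 and 2.71 RPM. Groups farther apart could be separate. Both d4c7 FR10 libraries lay above both day-4 ones, at 0.470 and 0.772 RPM, as did those of 29.2% of tested genes. In inferred reads the ratio of d4c7 FR10 to day-4 PGCLCs for Tdrd1 was 4.8 (95% counting interval 1.72 to 16.5, from 18 and 5 reads). The ratio was 1.3 in CsA (0.33 to 5.37), 1.47 in FGF10 (0.374 to 6.09) and 2.38 in FGF2 (0.764 to 8.75). These intervals leave out the spread between libraries. Tdrd9 had no library above 0.965 RPM, a day-4 one, and was at 0 in 8 of the 12 cultured libraries. In RefSeq the gene Rd3l lies antisense within Tdrd9, and whether the counting used strand is not stated. At this depth neither gene could be shown to change, and in a fit with no filter, over 18735 genes, the d4c7 FR10 minus day-4 log2 value was 1.31 ± 0.88 for Tdrd1 (SE, limma adjusted p = 0.444) and −0.55 ± 0.31 for Tdrd9 (adjusted p = 0.349).

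**Figure D2:**
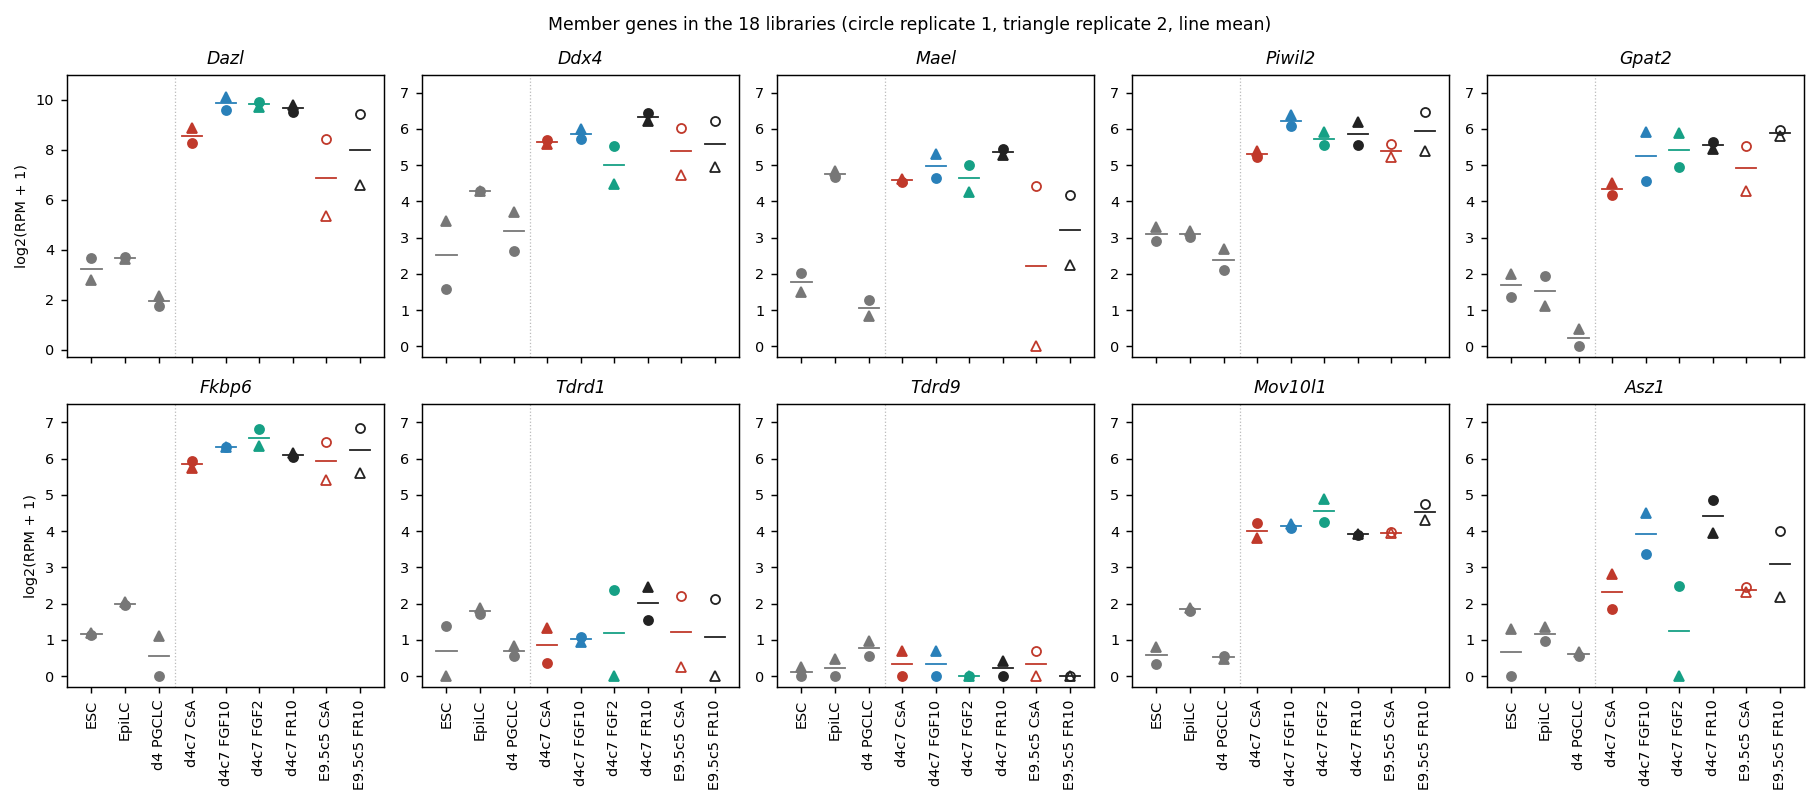
Level of the 10 members in each of the 18 libraries as log2(RPM + 1), by group, with circles for replicate 1, triangles for replicate 2, a line at the group mean and a dotted line between uncultured and cultured groups. The axis of Dazl reaches higher than the others. Day-4 PGCLCs are the lowest uncultured group, without overlap, for Dazl, Mael, Piwil2, Gpat2 and Fkbp6, and Tdrd1 and Tdrd9 stay low in all groups.

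What the induction did before culture was asked by comparing EpiLCs with ESCs and day-4 PGCLCs with EpiLCs. In EpiLCs 3 of the 8 tested members rose and 0 fell, against 7.09% of tested genes that rose. Mael rose by 3.00 ± 0.92 (log2 fold change ± SE, limma adjusted p = 0.0334), Ddx4 by 1.78 ± 0.58 (adjusted p = 0.0463) and Mov10l1 by 1.28 ± 0.39 (adjusted p = 0.0334). The rise of Mov10l1 rests on few reads, 6 inferred ones over both ESC libraries and 20 over both EpiLC ones. Fkbp6 had 0.83 ± 0.44 (adjusted p = 0.252), although both its EpiLC libraries lay above both ESC ones, as did those of 35% of tested genes, and Dazl had 0.45 ± 0.78 (adjusted p = 0.786). These calls were narrow: the count was 0 without ESC replicate 1, EpiLC replicate 1 or EpiLC replicate 2, and 1 without ESC replicate 2. The low reading of Ddx4 came from ESC replicate 1, without which the adjusted p of Ddx4 was 0.533.

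From EpiLCs to day-4 PGCLCs, the step at which the germ cell fate is set, 3 of the 8 tested members fell and 0 rose, against 12.1% of tested genes that fell. All 8 germ cell markers rose at the same step, as did 27.5% of tested genes. Mael fell by 3.72 ± 0.92 on the log2 scale (SE, limma adjusted p = 0.00437), Fkbp6 by 1.44 ± 0.44 (adjusted p = 0.0168) and Mov10l1 by 1.33 ± 0.39 (adjusted p = 0.0127). The falls of Fkbp6 and Mov10l1 rest on few reads. Over both libraries Fkbp6 had 23 inferred reads in EpiLCs and 6 at day 4, and Mov10l1 had 20 and 3. Dazl had −1.71 ± 0.78 (adjusted p = 0.09), Gpat2 −1.29 ± 0.52 (adjusted p = 0.057), Ddx4 −1.12 ± 0.58 (adjusted p = 0.136) and Piwil2 −0.71 ± 0.37 (adjusted p = 0.139). All 8 tested members had both day-4 libraries below both EpiLC ones, which held for 27.1% of tested genes, and their median was −1.31 against 0.34 over all tested genes. The count of 3 was 1 without EpiLC replicate 1, EpiLC replicate 2 or day-4 replicate 1. It was 7 with median-ratio scaling, which moved the median of all genes to −0.004, and 6 without the 3 libraries named above. EpiLCs were unsorted and day-4 cells sorted.

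Culture was examined by setting each d4c7 group against day-4 PGCLCs, and the 4 comparisons share the same 2 day-4 libraries. The median of all tested genes was −0.29 in CsA, −0.15 in FGF10, −0.40 in FGF2 and −0.07 in FR10. In FR10 all 8 tested members rose, against 7.01% of tested genes. In FGF10 8 of 8 rose, against 8.33%, in CsA 7 of 8, against 7.94%, and in FGF2 7 of 8, against 11.7%. Since 5 of these genes were tested only because cultured libraries were high, the counts are given as a description. Dazl, Ddx4 and Mael reached 10 RPM in uncultured libraries too. Dazl rose by 6.60 ± 0.78 in CsA (SE, limma adjusted p = 2.23e-05), by 7.91 in FGF10, by 7.86 in FGF2 and by 7.69 in FR10. Ddx4 rose by 2.47 ± 0.58 in CsA (adjusted p = 0.0049), 2.70 in FGF10 (adjusted p = 0.00363), 1.83 in FGF2 (adjusted p = 0.0194) and 3.16 in FR10 (adjusted p = 0.00143). Mael rose by 3.53 ± 0.92 in CsA (adjusted p = 0.00939), 3.93 in FGF10 (adjusted p = 0.0063), 3.59 in FGF2 (adjusted p = 0.00563) and 4.31 in FR10 (adjusted p = 0.00446). Mael had 7 inferred day-4 reads, and its ratio in inferred reads was 41.7 in FR10 (95% counting interval 19.9 to 105).

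The genes of piRNA production showed the same direction. Fkbp6 rose by 5.29 ± 0.44 in CsA, 5.77 in FGF10, 6.03 in FGF2 and 5.55 in FR10, and its ratio in inferred reads was 82.7 in FR10 (95% counting interval 37.6 to 227). Gpat2 had 2 inferred reads over both day-4 libraries. Its ratio to day-4 was 70.8 in CsA (19.2 to 590), 156 in FGF10 (42.8 to 1300), 173 in FGF2 (47.5 to 1430) and 167 in FR10 (45.7 to 1380), with counting intervals that all overlap. Mov10l1 had 3 inferred day-4 reads and ratios of 37.5 in CsA (12.5 to 185), 40.8 in FGF10 (13.6 to 201), 59.3 in FGF2 (19.9 to 290) and 34.2 in FR10 (11.3 to 170). Piwil2 rose by 2.92 ± 0.37 in CsA, 3.84 in FGF10, 3.34 in FGF2 and 3.48 in FR10. Asz1 rose by 3.32 ± 0.76 in FGF10 (adjusted p = 0.0055) and by 3.81 in FR10 (adjusted p = 0.0027), with 1.73 in CsA (adjusted p = 0.103) and 0.63 in FGF2 (adjusted p = 0.527). Asz1 was tested only because cultured libraries were high, both of FR10 among them, so its p-values are given as a description. The FGF2 value of Asz1 rested on its replicate 1, without which it was −0.61.

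**Figure D3:**
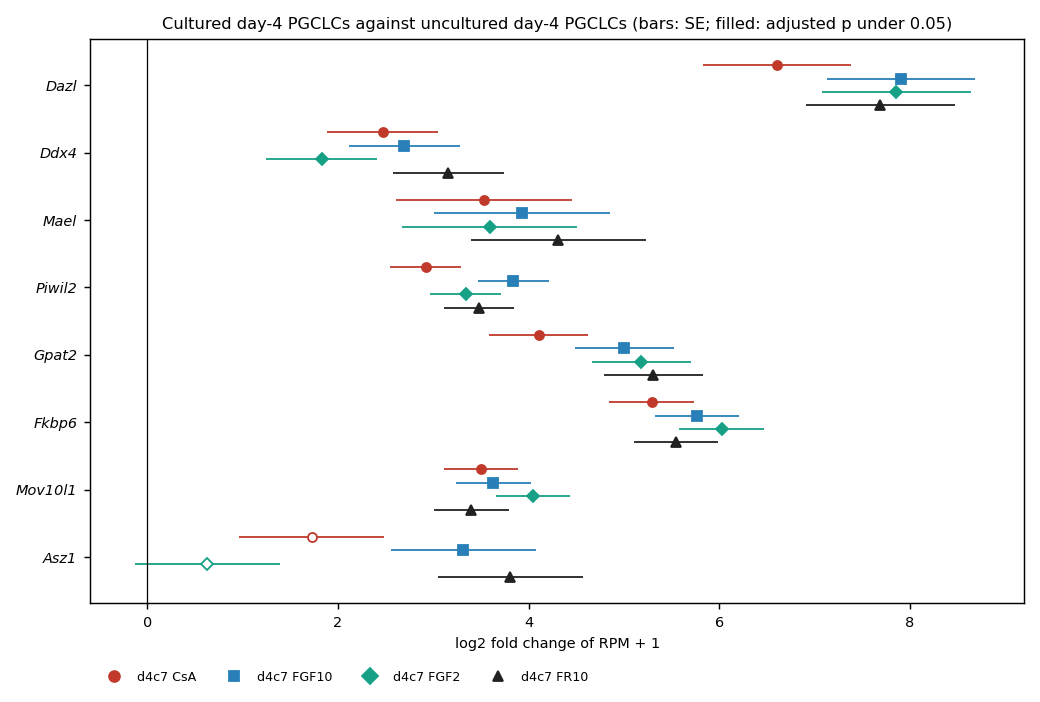
Log2 fold change of RPM + 1 in each d4c7 group over day-4 PGCLCs for the 8 tested members, with bars for the SE and filled symbols for an adjusted p under 0.05. Dazl lies farthest to the right in every group, and the open symbols are Asz1 in CsA (1.73) and FGF2 (0.63).

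Several of these calls were lost with 1 library. Without day-4 replicate 1 the adjusted p of Ddx4 was 0.0818 in CsA, 0.0693 in FGF10 and 0.188 in FGF2, and in FGF2 it was 0.142 without FGF2 replicate 1. The adjusted p of Mael in CsA was 0.0703 without day-4 replicate 2 and 0.0548 without CsA replicate 1, and in FGF10 it was 0.0568 without day-4 replicate 2 and 0.0547 without FGF10 replicate 2. Asz1 in FGF10 had 0.0504 without day-4 replicate 1 and 0.0651 without FGF10 replicate 2. The FR10 count was 8 whichever library was left out. Day-4 and d4c7 cells differ in strain as labelled, which cannot be told apart from culture. Of the 8 germ cell markers 5 fell in FGF10 and 5 in FGF2, against 12% and 28.9% of tested genes, and 0 rose in either. In CsA 3 fell and 1 rose, against 19.2% and 7.94%, and in FR10 1 fell and 1 rose, against 8.22% and 7.01%. Of 10 tested feeder and fibroblast markers 3 rose and 1 fell in FR10, with a median of 1.07, against 7.01% and 8.22% of tested genes. The whole list of 13 summed to 280 to 1020 RPM in d4c7 libraries and 1144 to 1168 RPM in day-4 ones, but Fn1, Vim and Sparc made up 72.5% to 99.8% of the sum in each of the 18 libraries, and it was highest in ESCs, at 2180 and 2118 RPM. The 10 other markers, set apart after their values were seen, summed to 196 and 172 RPM in FR10 against 19.2 and 29.5 RPM at day 4. The collagen gene Col3a1 averaged 50.4 ± 26.3 RPM in FR10 and 0.47 ± 0.66 RPM at day 4, and Col1a2 16.7 ± 1.22 RPM in FR10 and 1.38 ± 0.04 RPM at day 4 (SD, n = 2 each). In that list Lum was at 0 in all libraries, Thy1 at 0 in all cultured ones, and Dcn at 10.6 to 88.3 RPM in d4c7 cells and 0 at day 4. The part of such cells in the rise was not tested.

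Whether an addition changed these genes relative to FR10 was asked within d4c7 cells, where 3 comparisons share the FR10 libraries. With CsA 0 of 8 members passed, and limma called 3 of all tested genes, or 0.0314%. An unadjusted p under 0.05 was given by limma to 2 members, Asz1, with −2.08 ± 0.76 (SE, limma adjusted p = 0.25, 95% interval −3.69 to −0.47), and Gpat2, with −1.20 ± 0.52 (adjusted p = 0.319, −2.30 to −0.11). Dazl had −1.09 (95% interval −2.73 to 0.55), Ddx4 −0.69, Piwil2 −0.56, Fkbp6 −0.25 and Mov10l1 0.10 (−0.72 to 0.93). In 7 of 8 both CsA libraries lay below both FR10 ones, with Mov10l1 the exception, and this held for 41.6% of all tested genes. Germ cell markers summed to 3114 and 3106 RPM in CsA against 2778 and 2843 RPM in FR10. Most of these sums was Dppa3, with means of 1587 RPM in CsA and 1495 RPM in FR10, and Ifitm3, with 1139 and 774.5 RPM. Of the 8 germ cell markers 0 were called, and their median log2 value was −0.09. Feeder markers summed to 914 and 686 RPM in CsA against 1020 and 962 RPM in FR10. The 10 feeder markers other than Fn1, Vim and Sparc summed to 144 and 33.2 RPM in CsA against 196 and 172 RPM in FR10, and the part of these markers was not tested. The median of the members was −0.73 against −0.24 over all tested genes. Without the 3 libraries named above, none of which belongs to these groups, the shared spread was smaller and 968 genes were called, with Dazl (adjusted p = 0.0112) and Asz1 (adjusted p = 0.0191) among them and both lower in CsA.

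With FGF10 limma called 0 of the members and 0 of all tested genes, or 0%, against 477 of all genes at an unadjusted p under 0.05. The values of the members lay between −0.49 for Asz1 and 0.36 for Piwil2. Fkbp6 and Mov10l1 had both FGF10 libraries above both FR10 ones, as did 15.1% of tested genes, and Ddx4 had them below, as did 25%. The 95% interval of Dazl was −1.43 to 1.86, and that of Fkbp6 −0.72 to 1.16.

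With FGF2 Asz1 fell by 3.17 ± 0.76 (SE, limma adjusted p = 0.0235, 95% interval −4.78 to −1.57), the 1 member of 8 called, while 7.47% of tested genes fell. Ddx4 had −1.33 ± 0.58 (adjusted p = 0.142), Mael −0.72, Fkbp6 0.48 and Mov10l1 0.65, and the groups of these 4 did not overlap, as for 43.2% of tested genes that were lower and 15.2% that were higher. Asz1 reached 10 RPM in 4 libraries, both of FR10 among them, so a high level in FR10 helped to bring it into the test. The fall of Asz1 rests on few reads, 12 inferred ones over both FGF2 libraries. Its adjusted p was 0.0649 without FR10 replicate 2, 0.225 without FR10 replicate 1 and 0.236 without FGF2 replicate 2, where the log2 value was −1.94. The call was also lost without the 3 libraries named above (adjusted p = 0.0597), with only the cultured libraries fitted (0.0796), with no filter (0.0611) and with a pseudocount of 0.1 RPM (0.0535). Germ cell markers moved with it: 3 of 8 fell, and their sum was 1887 and 1375 RPM in FGF2 against 2778 and 2843 RPM in FR10. Feeder markers summed to 625 and 280 RPM in FGF2 against 1020 and 962 RPM in FR10, with 2 of 10 lower, and without Fn1, Vim and Sparc to 80.3 and 28.7 RPM in FGF2 against 196 and 172 RPM in FR10. Their part in the values of Asz1 and Ddx4 was not tested.

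**Figure D4:**
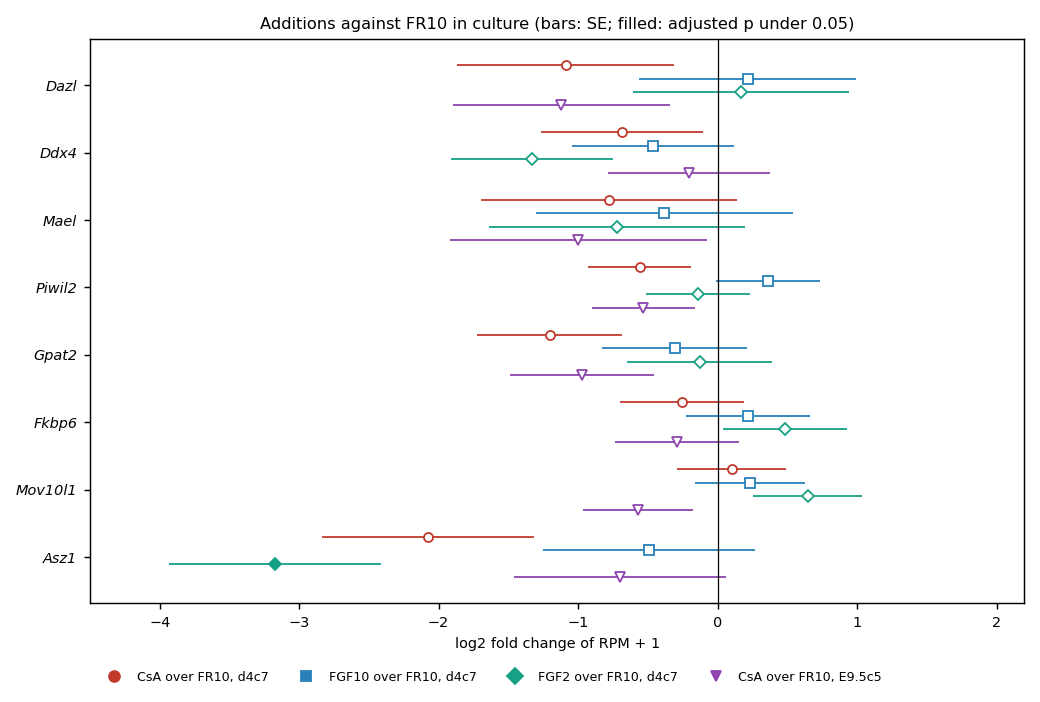
Log2 fold change of RPM + 1 for CsA, FGF10 and FGF2 over FR10 in d4c7 cells and for CsA over FR10 in E9.5c5 cells, for the 8 tested members, with bars for the SE and filled symbols for an adjusted p under 0.05. The 1 filled symbol is Asz1 in FGF2, and for CsA all symbols but that of Mov10l1 in d4c7 cells (0.10) lie left of 0.

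In E9.5c5 cells CsA was again compared with FR10, and limma called 0 of 8 members and 0 of all tested genes, or 0%, with 703 genes at an unadjusted p under 0.05. The 8 values ran from −0.21 for Ddx4 to −1.12 for Dazl, with Mael at −0.999, Gpat2 at −0.97 (95% interval −2.07 to 0.12) and Mov10l1 at −0.57. Their median was −0.63 against −0.11 over all tested genes. Both CsA libraries of Gpat2 and Mov10l1 lay below both FR10 ones, as did those of 16.8% of tested genes. All 8 tested members were lower in the second library of both groups, with a median absolute log2 difference of 1.15 in CsA and 1.27 in FR10, against 0.60 and 0.43 over all tested genes. The summed level of 11 other germline genes known to be silenced by DNA methylation showed the same split, with 222 and 36.6 RPM in the CsA libraries and 261 and 82.4 RPM in the FR10 ones. Germ cell markers summed to 4652 and 3536 RPM in CsA and 4217 and 3784 RPM in FR10, and feeder markers to 851 and 247 RPM in CsA and 599.5 and 421 RPM in FR10, each lower in the second library. Without Fn1, Vim and Sparc the feeder markers summed to 69.6 and 14.1 RPM in CsA and 70.4 and 62.3 RPM in FR10, and the part of these markers was not tested. Libraries of the same number, which the labels do not tie to a shared source, were also compared, as CsA minus FR10 on the log2 scale. Ddx4 differed by −0.20 and −0.21, Piwil2 by −0.88 and −0.18 and Gpat2 by −0.44 and −1.51. Fkbp6 differed by −0.39 and −0.18 and Mov10l1 by −0.77 and −0.37. Dazl differed by −1.03 and −1.21 (log2), Mael by 0.25 and −2.25 and Asz1 by −1.53 and 0.14. Leaving out 1 library leaves a first or second library unmatched, and direction then turned for Dazl and Mael: Dazl was 0.41 without CsA replicate 2 and 0.32 without FR10 replicate 1, Mael was 1.21 without CsA replicate 2, and without CsA replicate 1 Mael fell by 3.21 (adjusted p = 0.00753) and Dazl by 2.65 (adjusted p = 0.027).

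The test of the difference between the effects of CsA in E9.5c5 and in d4c7 cells called 0 members and 0 genes, or 0%, with 616 at an unadjusted p under 0.05. Its values lay between −0.67 ± 0.55 for Mov10l1 (SE, limma adjusted p = 0.91) and 1.38 ± 1.08 for Asz1 (adjusted p = 0.897), and the interval of Dazl, −2.35 to 2.29, is wide. Embryo-derived and induced cells were also compared in FR10, where strain, reporter, sort and days of culture differ along with origin. Limma called 0 members there, against 0.0418% of tested genes. Mael had −2.15 ± 0.92 (adjusted p = 0.299), Dazl −1.64 ± 0.78 (adjusted p = 0.336) and Asz1 −1.33 ± 0.76 (adjusted p = 0.409), while Mov10l1 had 0.62, Gpat2 0.35 and Piwil2 0.06. Dazl, Ddx4 and Mael had both E9.5c5 libraries below both d4c7 ones, which held for 35.1% of tested genes, and Gpat2 and Mov10l1 had them above, which held for 13.9%. Feeder markers summed to 599.5 and 421 RPM in E9.5c5 FR10 and 1020 and 962 RPM in d4c7 FR10, or without Fn1, Vim and Sparc to 70.4 and 62.3 RPM in E9.5c5 FR10 and 196 and 172 RPM in d4c7 FR10, and their part was not tested. Without E9.5c5 FR10 replicate 1 Dazl fell by 3.08 (adjusted p = 0.0423).

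Of 24 other genes of the piRNA pathway and of germ granules 12 were tested, and in FR10 against day-4 PGCLCs 3 rose and 0 fell, against 7.01% and 8.22% of tested genes, with a median of 0.32 against −0.07 over all tested genes. Tdrd12, a Tudor-domain partner in piRNA amplification, rose by 2.73 ± 0.25 (SE, limma adjusted p = 2.49e-06), from its libraries at 93.7 and 96.7 RPM in FR10 and 12.7 and 14.3 RPM at day 4. Unlike the members it was also high in ESCs, at 70.5 and 74.5 RPM. Tex19.1, which restrains transposons in the mouse germline, rose by 2.85 ± 0.58 (adjusted p = 0.0031, and 0.0542 without day-4 replicate 1), and Pnldc1, the piRNA trimming enzyme, by 1.21 ± 0.38 (adjusted p = 0.0394), a call lost without any 1 of the 4 libraries. Tdrd5, another Tudor-domain gene, had risen already by day 4, by 2.55 ± 0.32 over EpiLCs (adjusted p = 1.22e-05), with 55.9 and 41.5 RPM in day-4 PGCLCs and 5.14 and 10.4 RPM in EpiLCs. Morc1, a chromatin ATPase of transposon silencing, was at 10.7 and 11.6 RPM in EpiLCs and 314 and 292 RPM in ESCs, a fall of 4.65 ± 0.39 on the log2 scale (adjusted p = 2.66e-07).

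Among 12 germ cell RNA-binding proteins, of which 11 were tested, 3 rose and 1 fell at day 4 against EpiLCs, close to the 27.5% and 12.1% of tested genes that did so. Dnd1 rose by 3.996 ± 0.24 (limma adjusted p = 3.55e-09), with 174 and 142 RPM in day-4 PGCLCs and 8.57 and 9.29 RPM in EpiLCs, and Nanos3, needed for germ cell survival, by 3.40 ± 0.38 (adjusted p = 3.48e-06). In FR10 against day 4 0 rose and 1 fell, against 8.22% of tested genes that fell. The gene was Igf2bp1, which fell by 0.96 ± 0.22 (adjusted p = 0.00675). This call was lost without day-4 replicate 1 (adjusted p = 0.115) or FR10 replicate 1 (adjusted p = 0.0814). Day-4 PGCLCs were thus higher than EpiLCs in Dnd1 and Nanos3. Over all 9 groups they had the lowest means of Dazl, Mael, Piwil2, Gpat2, Fkbp6, Tdrd1, Mov10l1 and Asz1. In Tdrd1, Mov10l1 and Asz1 they overlapped the next group. The mean of Nanos3 was 16.6 RPM at day 4 and 28.0 RPM in FR10.

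Of the other germline genes known to be silenced by DNA methylation, 11 of 12 were in the files and 6 were tested. In FR10 against day-4 PGCLCs 5 rose and 0 fell, with 7.01% of tested genes higher and a median of 4.10, although a filter on level favours such genes here as it did for the members. Stk31, a Tudor-domain kinase, rose by 4.51 ± 0.80 (SE, limma adjusted p = 0.0011), with 69.7 and 68.4 RPM in FR10 and 1.41 and 2.90 RPM at day 4. Hormad1, a meiotic chromosome axis gene, rose by 4.45 ± 0.57 (adjusted p = 6.84e-05), Slc25a31, a sperm ADP/ATP carrier, by 4.21 ± 0.50 (adjusted p = 3.73e-05) and Rpl10l, the testis copy of a ribosomal protein gene, by 3.999 ± 0.75 (adjusted p = 0.0016). At day 4 against EpiLCs 4 of the 6 fell, with 12.1% of tested genes lower, led by Sycp3, a synaptonemal complex gene, by 4.34 ± 0.64 (adjusted p = 6.19e-05), with 2.35 and 2.12 RPM in day-4 PGCLCs and 69.0 and 60.4 RPM in EpiLCs.

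Of 6 tested DNA methylation genes 4 fell and 2 rose at day 4 against EpiLCs, a step at which 12.1% of tested genes fell and 27.5% rose. The de novo methyltransferase gene Dnmt3b fell by 8.37 ± 0.32 (limma adjusted p = 8.59e-12), with 3.29 and 3.09 RPM in day-4 PGCLCs and 1414 and 1351 RPM in EpiLCs, and Uhrf1, the cofactor of maintenance methylation, by 3.40 ± 0.41 (adjusted p = 7.37e-06). In FR10 Uhrf1 was at 8.52 and 6.56 RPM, and Dnmt3b, at 18.6 and 26.9 RPM, was 2.48 ± 0.32 above day 4 (adjusted p = 6.35e-05). In FGF2 against FR10 Dnmt3l rose by 3.39 ± 0.58 (adjusted p = 0.00711), with 54.4 and 56.4 RPM in FGF2 and 4.26 and 4.49 RPM in FR10, and Dnmt3b by 1.503 ± 0.32 (adjusted p = 0.015). Both calls were lost without FR10 replicate 1, at adjusted p-values of 0.131 and 0.188, and with only the 12 cultured libraries fitted, at 0.0559 and 0.0796. Of the 8 tested members 1 was called in FGF2 against FR10, Asz1, which fell by 3.17 ± 0.76 (adjusted p = 0.0235), a call lost under several alternatives. Dazl, with 0.17 (95% interval −1.47 to 1.81), and the other members did not pass. A link between the members and the methyltransferase genes was not tested.

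Of 11 tested genes of PRC1.6 and H3K9 repressors 0 rose and 1 fell in FR10 against day 4, where 8.22% of tested genes fell. This was Max, which fell by 0.92 ± 0.29 (limma adjusted p = 0.0439), a call lost without any 1 of the 4 libraries. Max, the partner of MGA on CACGTG, had itself risen by 2.15 ± 0.29 at day 4 against EpiLCs (adjusted p = 2.83e-05), with 122 and 130.1 RPM in day-4 PGCLCs and 29.5 and 25.9 RPM in EpiLCs. In FGF2 against day 4 6 fell and 1 rose, with 28.9% of tested genes lower and 11.7% higher, and with median-ratio scaling 5 fell and 3 rose. Max fell by 2.26 ± 0.29 (adjusted p = 2.81e-05) and Mga by 2.32 ± 0.52 (adjusted p = 0.00219), and the median of all genes was −0.40 there.

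**Figure D5:**
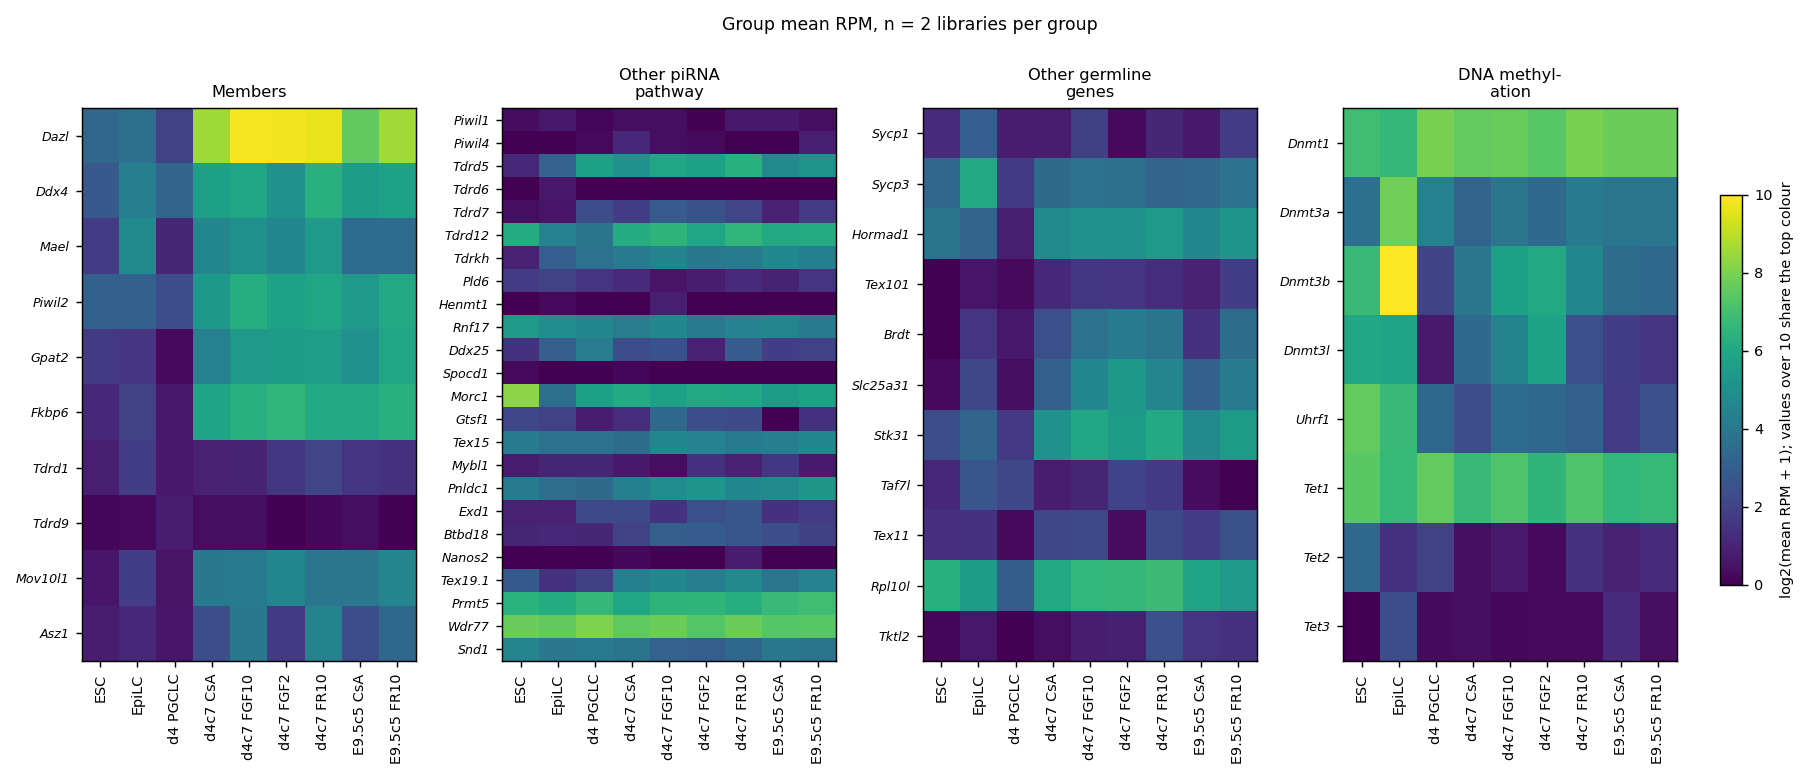
Group means (n = 2 libraries) as log2(mean RPM + 1) for the 10 members, the 24 other piRNA pathway genes, 11 other germline genes and 8 DNA methylation genes, with genes down the page and the 9 groups across it. Values over 10 share the top colour. The step between day-4 PGCLCs and the cultured groups is visible for the members and for Hormad1, Stk31 and Rpl10l, and few of the other piRNA pathway genes show it.

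Members and genes with names of the Gm, Rik, Mir, Snor and LOC types were first set aside, which left 9160 tested genes. Among these, the genes most like Dazl were found by Pearson's r of group means of log2(RPM + 1) over the 9 groups. The groups share libraries, depth and the split into cultured and uncultured cells. The r values are given as a description. The genes most like Dazl were Tln2 (r = 0.995), Eno1b (0.993), Nlrp4c (0.986), Sohlh2 (0.983) and Eif3j2 (0.982). For the mean of the 10 members, each centred on its own mean, they were Sohlh2 (0.991), Mpp7 (0.983), Actr3b (0.981), Stk31 (0.98) and Tln2 (0.978). Sohlh2, a transcription factor gene of early germ cells, had a highest group mean of 29.8 RPM and a lowest of 1.57 RPM, while Tln2, a talin gene of cell adhesion, ranged from 14.1 to 72.5 RPM. Eno1b and Eif3j2 have near-identical copies elsewhere in the genome, so their 3′ reads are uncertain.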

How the data were processed

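Each deposited file lists 34896 genes with 1 RPM value per gene, scaled by the authors to a library total of 999097.9 to 999616.7, and 46 genes without a value were left out. Per the labels' protocols, cDNA was amplified from 1 ng of RNA and sequenced by SC3-seq. Per the submitters' processing notes, the tools were TopHat 1.4.1, cutadapt 1.3 and Cufflinks 2.2.0 with the build mm10, their roles not stated. Annotation and counting: not given in the sources used here. Depth was inferred from the step between low RPM values, which were whole multiples of it for 99.71% to 99.816% of low values (tolerance 0.02 read). In each library 34 to 57 values lay below the step, so no count model was the main test.

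All 18 libraries entered a limma 3.58.1 fit (R 4.3.3) of log2(RPM + 1) with a mean per group and a variance trend, 9 residual degrees of freedom and Benjamini-Hochberg adjustment over 9561 genes. All groups share this spread. Fold changes on that scale understate those of low genes. Ratios of inferred reads with counting intervals are therefore given for Mael, Gpat2, Fkbp6, Tdrd1, Mov10l1 and Asz1, for Mael and Fkbp6 in FR10 only. The procedure was tested on simulated counts with the same spread in all libraries and with changes placed only in genes above a set mean level. That test does not cover genes with few reads or libraries that stand apart. The members, the gene lists and the tests were chosen with earlier results of these data known. Named genes are the members and at most 4 called genes per list, those of smallest p, or 2 uncalled ones. Alternatives changed the pseudocount (0.1 or 10 RPM), the filter (none, or 50 RPM) and the scaling (median-ratio), or used a replicate block, a fit of the compared kind of library, and leaving out each replicate. A fit without 3 libraries, voom on inferred reads and a block for the E9.5c5 libraries alone were added after seeing the data.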

Additional observations from a re-analysis of the deposited data

How the results depend on the processing

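Of 1474 alternative values for 120 log2 fold changes, 1328 kept direction and call, 122 lost the call, 17 gained it and 7 turned direction. Number of members called: in EpiLC minus ESC, 3 as reported, it was 1 with a pseudocount of 10 RPM, with no filter and with a filter at 50 RPM, and 0 to 1 without 1 replicate. In day-4 PGCLC minus EpiLC, 3 as reported, it was 7 with median-ratio scaling, 1 with a pseudocount of 10 RPM or with voom, 6 without 3 libraries and 1 to 2 without 1 replicate. In FR10 and FGF10 minus day 4, 8 as reported, it was 5 with a filter at 50 RPM, where 5 members were tested. In FGF2 minus FR10, 1 as reported, it was 0 with a pseudocount of 0.1 RPM, with no filter, with a filter at 50 RPM, in the cultured libraries alone and without 3 libraries, and 0 to 1 without 1 replicate. In CsA minus FR10 it was 2 without 3 libraries. Without 1 replicate it was 0 to 2 in CsA minus FR10 of E9.5c5 and 0 to 1 in E9.5c5 minus d4c7 FR10, both 0 as reported. Direction turned for Asz1 in FGF2 minus day 4 (−0.16 with voom, −0.61 without FGF2 replicate 1, in a range up to 1.87 without FGF2 replicate 2) and for Mov10l1 in CsA minus FR10 (−0.10 without CsA replicate 1, up to 0.31 without CsA replicate 2). In E9.5c5 CsA minus FR10 it turned for Dazl (0.41 without CsA replicate 2, 0.32 without FR10 replicate 1, down to −2.65 without CsA replicate 1) and for Mael (0.25 without 3 libraries, 1.21 without CsA replicate 2, down to −3.21 without CsA replicate 1). The cause was not tested.

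Median-ratio scaling turned no direction among these values. It moved the share of higher genes among all calls, to 47.8% against 69.5% as deposited in day 4 minus EpiLC, 52% against 29.3% in CsA, 52.5% against 41% in FGF10 and 50.6% against 28.7% in FGF2 minus day 4, and 52.8% against 15.5% in FGF2 minus FR10. With CsA minus FR10, where 9 and 3 genes were called, it was 88.9% against 66.7%. No label says that replicate numbers mark a shared source. Deviations of same-numbered replicates correlated at −0.102 to 0.34 over 36 pairs of groups, 7 of them over 0.1, and were highest between the E9.5c5 groups. With the replicate number as a block, 8 members were called in FR10 minus day 4, and no member's call changed in any comparison. With a replicate block in E9.5c5 only, added after seeing the data, 0 members and 15 genes were called in CsA minus FR10 of E9.5c5, and the adjusted p of Dazl was 0.138. Tdrd1, Tdrd9 and the day-4 values of Mael, Gpat2, Fkbp6, Mov10l1 and Asz1 are limited by depth.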
